A study of Homo sapiens with 8 samples.

Results

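The transcripts described here are among those along which reactivity to a structure probe was spread most evenly in control HEK293T cells. They were chosen by joining the control and the knockdown table on the transcript. A member has a maximum reactivity below 7 in both conditions, a Gini index below 0.65 in control, and does not move the same way in both average and Gini index. Of 38314 transcripts, 2623 had a control Gini index below 0.65, and none of these reached the maximum of 7. The rule left out 586 that were higher on average and more uneven in knockdown, and 0 were lower on average and more even. The 2037 members, 5.32% of all transcripts, are thus 1994 transcripts that were higher on average and more even in TDP-43 knockdown and 43 that were lower on average and more uneven. The control Gini index and the directions of both differences chose the members, so these are given as a description and no test was made on them.

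The series holds 8 SHALiPE-seq libraries of HEK293T, a human embryonic kidney line, in 4 groups of 2 replicates. The groups are control cells with the genotype WT and cells with TDP-43 knockdown, each exposed to 100 mM NAI or, as the unprobed background, to 5% DMSO, for 15 min at 37 °C. How the knockdown was made, and in which clone or pool of cells, is not stated in the labels. The tables give 1 combined summary per transcript and condition. There is therefore no replicate error and no p-value below, the read depth behind a value is unknown, and the level of TDP-43 mRNA was not analysed here.

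NAI acylates the 2'-hydroxyl of flexible nucleotides, and reverse transcription stops next to the modified base, so that unpaired or mobile bases read as reactive. The Gini index describes how reactivity is shared out along a transcript. It is 0 where all positions react alike and nears 1 where a few positions carry the signal, and in structure probing a low value is commonly read as a sign of little stable folding. TDP-43 is a protein with RNA recognition motifs that is known for binding UG-rich RNA and for its aggregates in amyotrophic lateral sclerosis, and the series title names its binding to RNA G-quadruplexes, which are stacked folds that guanine-rich RNA can form. No table used here pairs the transcript identifiers with genes or sequences, so the members are described by their reactivity and their number of positions.

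In control the members had high and similar average reactivity. The lowest control average was 0.274, the median 0.321 and the highest 0.473 on the scale of the tables, which the headers leave unnamed, against a median of 0.190 over all transcripts. The lowest member stood at percentile 90.9 of all control averages. The control Gini index of members ran from 0.397 to 0.6499 with a median of 0.601, against 0.837 over all transcripts. One minus the Gini index is the smallest share of positions that can carry any reactivity. In control it had a median of 39.9% in the members and 16.3% over all transcripts, which restates the index that chose the members. The most reactive position of a member held a median of 0.471% of the summed reactivity of its transcript, against 1.26% over all transcripts. The high averages did not come with high peaks, since the control maximum had a median of 1.74 in members and 2.32 over all transcripts. The control standard deviation along the transcript hardly varied among members, with a middle 50% of 0.356 to 0.366. This was not particular to members. The middle 50% was 0.364 to 0.372 at a control Gini index of 0.65 to 0.70 with the other conditions met. Over all transcripts it was 0.368 to 0.438.

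A few transcripts nearest to the limit of 0.65 show its position. Among those of at least 200 positions, the 3 members just inside it had control Gini indices of 0.6499, control averages of 0.288 to 0.294 and knockdown averages of 0.389 to 0.463. The 3 transcripts just outside it that met the other conditions had control Gini indices of 0.6501 to 0.6503, control averages of 0.280 to 0.311 and knockdown averages of 0.417 to 0.470. The ranges of these 2 sets of 3 overlapped in both conditions, and all 6 were higher on average in knockdown. In the wider bins, 2.61% of transcripts at a control index of 0.60 to 0.65 and 13.3% at 0.65 to 0.70 were more uneven with a lower average.

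In knockdown the members were more reactive on average and the signal was shared more evenly still. The median average reactivity was 0.482, with a middle 50% of 0.444 to 0.525, against 0.304 to 0.345 in control. The median of the differences within transcripts, knockdown minus control, was 0.154, and the middle 50% of differences ran from 0.120 to 0.191. Over all transcripts the median difference was -0.0011. The ratio of knockdown over control had a median of 1.48 and a highest value of 2.14 in members. Average reactivity was higher in knockdown in 97.9% of members, against 49.5% of all transcripts. At least 1.5-fold higher averages were seen in 897 members, or 44.0%, against 15.1% of all transcripts, and at least 2-fold higher averages in 12 members, or 0.589%, against 0.851%. At least 1.5-fold lower averages were seen in 8 members, or 0.393%, against 2.39% of all transcripts. At least 2-fold lower averages were seen in 2 members, or 0.0982%, close to the 0.115% of all transcripts. These shares follow in part from the rule and nothing is read from them.

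The Gini index of members had a median of 0.548 in knockdown. Its median difference was -0.039, and the most negative difference was -0.189. Without the filter on direction, over all 2623 evenly reactive transcripts, the median difference was -0.026, and with the limit set on the knockdown index in place of control it was -0.085. It was lower in knockdown in the same 1994 members that were higher on average, as the rule fixes, against 36.2% of all transcripts, and higher in the other 43, against 63.8%. The smallest share of positions with any reactivity had a median of 45.2% in knockdown, up from 39.9% in control. A second such bound, from the average and the standard deviation, went from 44.0% to 50.3% at the median, and 1988 members had the higher value in knockdown, against 36.4% of all transcripts. Over all 2623 evenly reactive transcripts, with no filter on direction, 77.2% had the higher value of this bound in knockdown. The 1994 members that were more even had a knockdown Gini index below 0.65 by the rule. Of the other 43, 39 were at that value or above, so that 1998 members were below 0.65. Among the 33235 transcripts below the ceiling in both conditions, 6028 had a knockdown index under 0.65.

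**Figure D1:**
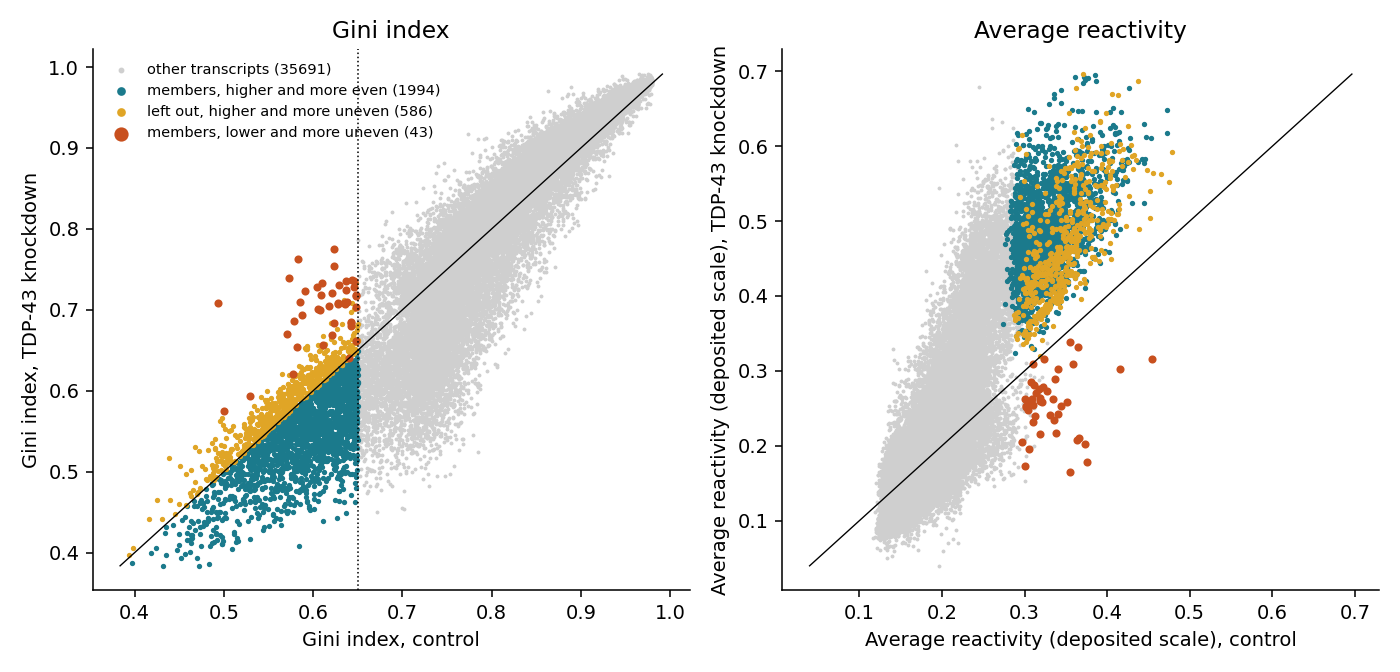
Gini index (left) and average reactivity on the deposited scale (right) of every transcript, control on the horizontal and TDP-43 knockdown on the vertical axis, with the line of equality and, dotted, the limit of 0.65. The 1994 members in blue lie below the line on the left and above it on the right, the 43 members in red the other way round, and the 586 transcripts left out by the rule, in yellow, lie above the line in both panels.

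Evenness relative to the average and spread in absolute terms went opposite ways. The standard deviation along the transcript was higher in knockdown in 2004 of 2037 members, 98.4%, against 55.1% of all transcripts. Its median in members was 0.361 in control, against 0.472 with knockdown. The mean absolute difference between positions, which is the average distance in reactivity between a pair of positions drawn from the transcript and equals the Gini index times the average times 2, had a median of 0.385 in control cells and 0.520 in knockdown cells. It was higher in the latter in 2001 members, against 50.5% of all transcripts. Positions of a member therefore lay further apart in reactivity in knockdown on the deposited scale, while the average differed by more than the spread did. The median ratio of knockdown over control was 1.48 for the average, 1.31 for the standard deviation and 1.35 for the mean absolute difference. The coefficient of variation, the standard deviation over the average, was lower in knockdown in 1988 members, or 97.6%, against 36.4% of all transcripts. With no filter on direction the share was 77.2% of the 2623 evenly reactive transcripts, so the share in members follows in part from the rule. The medians of this coefficient in members were 1.13 in control and 0.995 in knockdown. The second bound given above depends on this coefficient alone, so the 1988 members counted there are the same result. With each measure divided by its own median over all transcripts of each condition, the standard deviation was higher in knockdown in 83.7% of members. Its median difference shrank from 0.112 to 0.038, and the mean absolute difference was higher in 98.0%. The divisors differ by measure, so these values do not show the effect of a common factor on a whole table.

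As a ratio of knockdown over control, peaks differed less than averages did. The maximum reactivity of members went from a median of 1.74 to 2.04, and the median difference was 0.301. It was higher in knockdown in 1778 members, 87.3%, against 60.3% of all transcripts. Its median ratio was 1.18, against 1.48 for the average. With the maximum divided by its own median over all transcripts of each condition, 64.8% of members had the higher maximum in knockdown. The median difference was then 0.088. This divisor is not the one used for the average, so it does not stand for a rescaling of a whole table. The maximum over the average had medians of 5.41 and then 4.28 and was lower in knockdown in 1913 members, or 93.9%, against 40.1% of all transcripts. Among all 2623 evenly reactive transcripts, with no filter on direction, it was lower in 84.4%, so the share in members follows in part from the rule. The highest maximum of any member was 4.76 in control and 5.58 in knockdown, so that the ceiling of 7 touched no member. The Gini index, the coefficient of variation and the maximum over the average do not change if a whole table is multiplied by a number, whereas the average, the standard deviation and the maximum do.

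**Figure D2:**
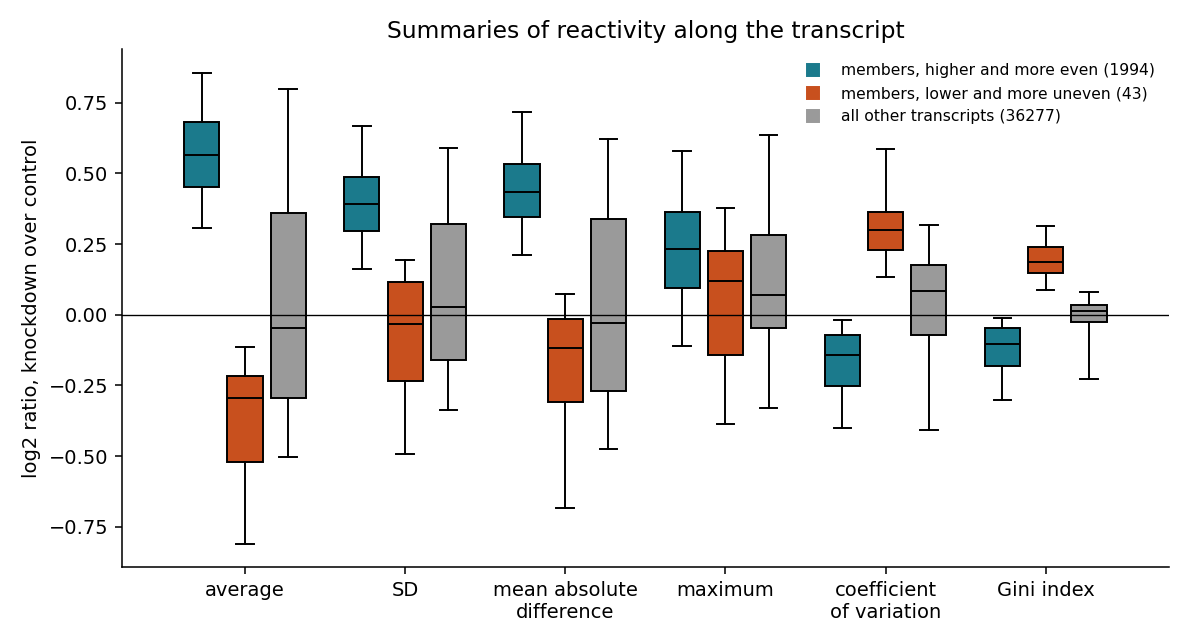
Log2 ratio of knockdown over control for 6 summaries of reactivity, with boxes for the middle 50%, a line at the median and whiskers from percentile 5 to 95 of transcripts. In the 1994 members that were higher and more even, the average lies furthest above 0, the standard deviation, mean absolute difference and maximum less far, and the coefficient of variation and Gini index below it, whereas boxes of all other transcripts span 0.

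The 2 members with the largest increase in average, among those of at least 200 positions, are given as examples. They were picked for that increase, so a wide difference in their averages is built in. In ENST00000577756.5, with 1124 positions, average reactivity was 0.304 in control against 0.649 in knockdown, 2.14-fold higher. Its Gini index was 0.635 and 0.505 in the same order, and its maximum was 2.23 and 2.36. The maximum thus differed little while the average differed widely. The most reactive position, which need not be the same in both conditions, held 0.654% of the summed reactivity in control and 0.324% with knockdown. In ENST00000402252.6, with 1326 positions, average reactivity was 0.312 against 0.646, 2.07-fold higher in knockdown. Its Gini index was 0.623 and 0.510, and its maximum was 2.03 and 2.39. The 6 members with the largest increases in average were all more even in knockdown and lay between 552 and 1531 positions, with knockdown averages of 0.646 to 0.693. Their maxima were 1.65 to 2.23 in control and 2.18 to 2.62 in knockdown, and the maximum of the longest of them went from 1.65 to 2.62. The 6 with the largest decreases of the Gini index were other transcripts, since 0 of them were among those 6. Their Gini index lay between 0.584 and 0.647 in control and between 0.409 and 0.463 in knockdown, and their averages were 1.45 to 1.85-fold higher.

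The members that were most even in control differed least in the Gini index. The 8 with the lowest control Gini index, 0.397 to 0.443, had knockdown values of 0.384 to 0.434, and their averages went from between 0.438 and 0.473 to between 0.524 and 0.649. Divided into 5 groups of 20% by control Gini index, members had median differences in the index of -0.029, -0.034, -0.041, -0.051 and -0.048 from the most even to the least even group. The median difference in average reactivity varied little across these groups, from 0.150 to 0.160. The median ratio went from 1.40 in the most even to 1.54 in the least even group, as the control average went from a median of 0.371 to 0.295. At least 1.5-fold higher averages were seen in 23.0% of the most even group and 59.3% of the least even group. The groups are cut on the index that chose the members, and the transcripts that the direction filter removed lay more often at low control indices, so the pattern across these groups is a description only.

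The 43 members that were lower on average stood apart in length. The number of positions that entered an average was recovered from the deposited digits for all 2037 members. It had a median of 96 in these 43, with a range of 15 to 1499, and of 1214 in the 1994 that were higher. Of the 43, 22 had under 100 positions, 2 had 100 to 199 and 19 had at least 200. Their average went from a median of 0.322 to 0.258, and their Gini index from 0.624 to 0.709. Their standard deviation was higher in knockdown in 20 of 43, against 55.1% of all transcripts, and their maximum in 27, against 60.3%. These counts differed by length. At 200 positions or more, the standard deviation was higher in 17 of 19 and the maximum in 17 of 19, and under 100 positions in 3 of 22 and 10 of 22. ENST00000580201.1, with 531 positions, had the largest decrease among members of at least 200 positions, from an average of 0.334 to 0.263. Its Gini index was 0.610 in control against 0.733 with knockdown, and its maximum was 1.41 against 1.61. ENST00000614903.1, with 219 positions, had averages of 0.319 and 0.260, a Gini index of 0.635 and 0.709, and a maximum of 1.59 and 1.54. Both were less reactive and more uneven in knockdown, but their maxima moved in opposite senses.

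Few of the short members were higher on average. Of the 29 members under 100 positions, 7 were higher on average in knockdown, and of the 3 members of 100 to 199 positions, 1 was. The share higher was 89.9% of 119 members of 200 to 499 positions, 99.3% of 731 of 500 to 999 and 99.7% of 763 of 1000 to 1999. All 377 members of 2000 to 4999 positions and all 15 of 5000 or more were higher. Over all transcripts the share higher was 9.66% under 100 positions, 17.8% at 100 to 199, 34.0% at 200 to 499 and between 50.6% and 58.8% in the longer classes, so short transcripts outside the members were also mostly lower. The rule dropped 5 transcripts under 100 positions that were higher and more uneven, and with them 12 of 34 evenly reactive transcripts of that class were higher. The median difference in average reactivity was -0.090 under 100 positions and between 0.134 and 0.185 in the 5 classes from 200 positions upward. The part of the number of positions in this result was not tested.

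Evenly reactive transcripts were most frequent at middle lengths. A control Gini index below 0.65 was held by 2.72% of transcripts under 100 positions, 0.660% of the class of 100 to 199, 2.50% of that of 200 to 499 and 7.77% of that of 500 to 999. The share was highest at 1000 to 1999 positions, 11.3%, and then 6.94% at 2000 to 4999 and 1.53% at 5000 or more. Members had a median of 1181 positions, against 1052 over all transcripts. The transcripts left out because they became more uneven were longer, with a median of 2000 positions. They made up 13.8% to 16.4% of the evenly reactive transcripts in the 3 classes from 200 to 1999 positions, 41.7% of those of 2000 to 4999 and 60.5% of the 38 of 5000 or more.

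**Figure D3:**
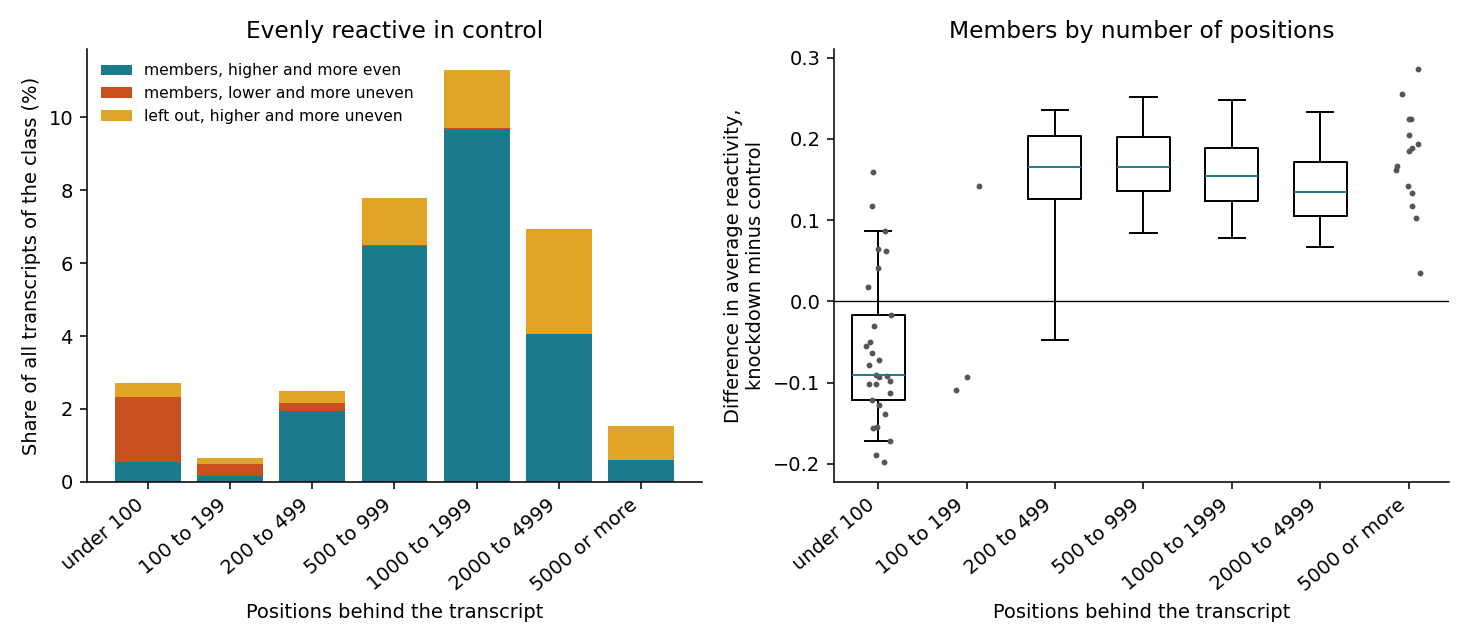
Left, share of all transcripts in each class of positions that were evenly reactive in control, divided by joint direction in knockdown. Right, difference in average reactivity of members, knockdown minus control, with boxes for the middle 50% and whiskers from percentile 5 to 95 in classes of at least 20 members, and single members as dots in classes of under 50. Of the 29 shortest members 22 lie below 0, and the boxes from 200 positions upward lie above it.

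The 586 evenly reactive transcripts that the rule left out were more uneven in knockdown by the rule. Their average went from 0.343 to 0.458 at the median, a median ratio of 1.33. This was less raised than in the members, which started from a lower control median of 0.321. Differences in average and in Gini index had a Pearson correlation of -0.720 over all transcripts, so the smaller rise in the 586 is not independent of the rule. Their Gini index went from a median of 0.571 to 0.588, with a median difference of 0.017, and their maximum from 1.64 to 2.18. In control their median index was thus lower than that of the members, 0.601. The median ratio of the maximum was 1.31 in the 586 and 1.18 in members. The maximum over the average was higher in knockdown in 284 of the 586, or 48.5%, and in 124 members, or 6.09%, against 59.9% of all transcripts. The direction filter divides these 2 sets, so the contrast between them follows in part from the rule. With the 586 counted in, average reactivity was higher in knockdown in 98.4% of the 2623 evenly reactive transcripts, and 629 of the 2623 were more uneven. The 1678 transcripts of a control Gini index of 0.65 to 0.70 that met the other conditions had median averages of 0.272 and then 0.430. Of these, 1432 were higher on average and more even, and their median difference in the Gini index was -0.058.

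The joint direction varied with the control Gini index on both sides of the limit. Among all transcripts below the ceiling, the share that was higher on average and more even was 62.9% at a control Gini index of 0.45 to 0.50, 64.4% at 0.50 to 0.55, 72.8% at 0.55 to 0.60 and 84.2% at 0.60 to 0.65. It was 77.4% at 0.65 to 0.70 and 70.8% at 0.70 to 0.75, and then went down to 1.45% at 0.95 and above. Over all transcripts, the ceiling included, it was 30.9%. Binned by the knockdown Gini index instead, the share lay between 88.8% and 95.7% in each bin of 0.05 from 0.40 to 0.70. The value used for binning is itself part of the difference in the index, with opposite sign in the 2 ways of binning. The share of transcripts that were higher and more uneven went down from 36.4% at a control index of 0.45 to 0.50 to 13.2% at 0.60 to 0.65.

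**Figure D4:**
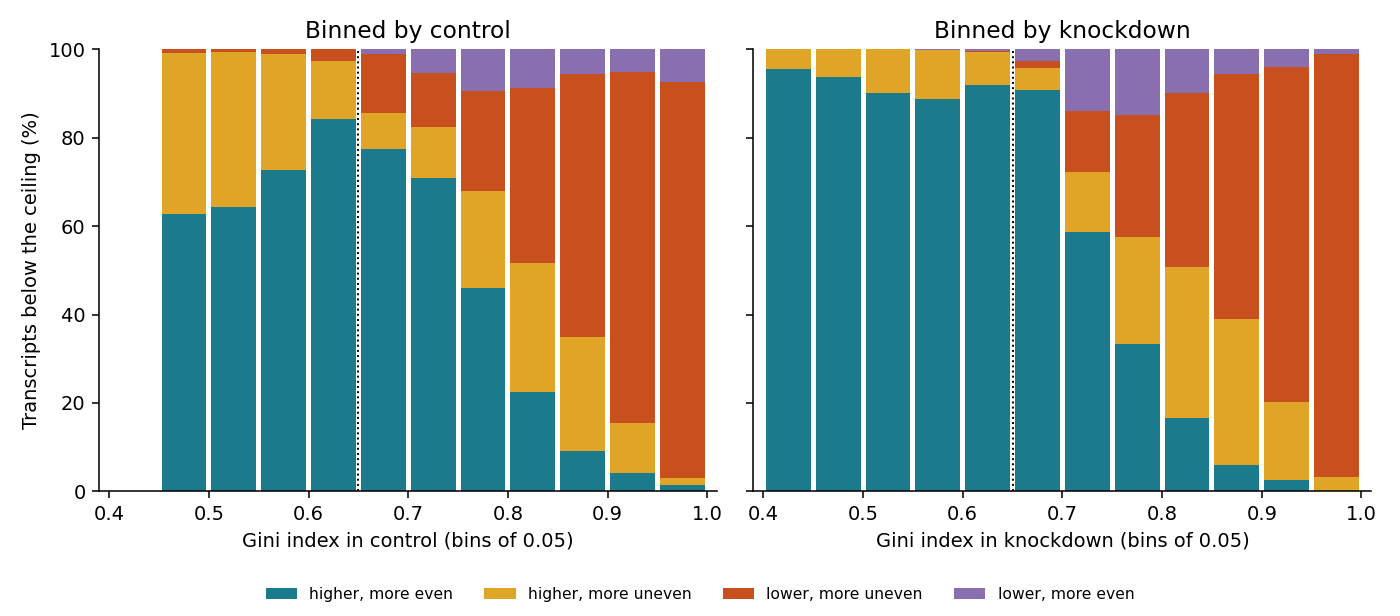
Share of transcripts below the ceiling with each joint direction of average reactivity and Gini index in knockdown, in bins of 0.05 of the control index (left) and of the knockdown index (right); bins of under 20 transcripts are not drawn and the dotted line marks 0.65. Higher and more even transcripts make up most of every bin below 0.65 in both panels.

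More transcripts were evenly reactive in knockdown than in control. Below the ceiling in both conditions, 6028 transcripts had a knockdown Gini index under 0.65, against 2623 with a control index under it. The 2533 that met the limit in both conditions were 96.6% of those even in control and 42.0% of those even in knockdown. A further 3495 met it in knockdown and not in control, and 90 in control and not in knockdown. Among all transcripts, members had a median percentile of 96.2 for the average in control and 95.4 in knockdown, and of 3.78 and 3.70 for the Gini index. Their places spread out more in knockdown. The rule limited the Gini index in control but not in knockdown, and the control average is closely tied to that index. Wider places in knockdown thus follow in part from the rule. The lowest percentile of the average went from 90.9 to 40.9, and the Gini index below which 95% of members lay went from percentile 6.55 to 12.1. Of the 2037 transcripts with the highest averages, members made up 72.8% in control and 55.5% in knockdown, which also follows in part from the rule. At the median, the place of their standard deviation and maximum differed more, from a median percentile of 10.4 for the control standard deviation to 57.1 for that of the knockdown, and for the maximum from 14.4 to 24.2.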

How the data were processed

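Poly(A) RNA of NAI- and DMSO-treated cells was sequenced. The tools cutadapt 1.15 and Bowtie2 2.3.3.1 and the build hg38 appear in the submitters' processing notes. The sources used here do not say how reads became reactivities, how these were scaled or which annotation was taken. Each condition has 1 table that the authors deposited, and per the file headers it gives the maximum, average and standard deviation of reactivity, a score of unstated scale, and the Gini index, a fraction. The word combined in the headers was taken to mean pooled replicates. Columns of per-sample values numbered 0.

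Members and settings were chosen with earlier results of these data known. Positions per transcript were the smallest number for which the sum of reactivities with 3 decimals, the Gini numerator and the sum of squares were whole in both tables and the sum was at least the maximum. They were recovered for 38307 transcripts. In 500 simulated transcripts 97.2% were exact, and the other 14 were too small by a factor of 2. Positions can be fewer than nucleotides. Named transcripts have at least 200 positions and the largest rises and falls of the average, 2 identifiers per direction because genes could not be named. For that reason the planned gene lists and sequence motifs were not analysed here. Isoforms of a gene share reads, so members are not independent. Values were computed in Python 3.11.15 (pandas 2.3.3, numpy 2.4.6, scipy 1.17.1) and drawn with matplotlib 3.10.9.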

Additional observations from a re-analysis of the deposited data

How the results depend on the processing

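No alternative turned a direction. A value was taken as moved where it left the 95% binomial interval of the reported share or median, which covers the counting of transcripts only. The share of members higher on average (97.9%) moved to 98.8% with a Gini limit of 0.60, 92.2% with 0.70, 99.9% with the limit on the knockdown index, 99.1% with at least 200 positions and 99.6% with at least 500. The median difference in average (0.154) moved to 0.147 without the direction filter and 0.163 with the limit on the knockdown index. It was 0.167 with division by the median. There each measure was divided by its own median over all transcripts in each condition and set on the control's scale. The median difference in the Gini index (-0.039) moved to -0.033 and -0.047 with limits of 0.60 and 0.70, and to -0.026 without the direction filter. With the limit on the knockdown index it was -0.085, and with division by the median -0.051. The last value comes from dividing the Gini index itself by its median, since a common factor on all reactivities leaves the index unchanged. The median difference in the standard deviation (0.112) moved to 0.105 with 0.60 and 0.117 without the direction filter. It was 0.105 with the knockdown limit and 0.038 with division by the median. That of the maximum (0.301) moved to 0.275, 0.357, 0.252 and 0.088 in the same order. The median of positions (1181) moved to 1081 with 0.70, 1297 without the direction filter, 897 with the knockdown limit and 1289 with at least 500 positions. Limiting the mean index of both conditions, or the knockdown index, both without the direction filter, was added after seeing the data. These gave shares of 99.6% and 99.7%, differences in average of 0.161 and 0.159, in the Gini index of -0.051 and -0.078, in the standard deviation of 0.116 and 0.108, in the maximum of 0.327 and 0.281, and medians of 1096 and 931.5 positions. None of the 6 results moved when transcripts with identical values were merged. Lifting the limit on the maximum returned the same 2037 transcripts, since none of the evenly reactive ones reached it, and so tests nothing. One transcript per gene was not run because genes could not be named. No paired analysis was possible because the replicates of a condition are merged in the tables, which also prevents leaving out a replicate.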

Other observations

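In control, average and Gini index of members were tied more closely than in knockdown. Across the 2037 members the Pearson correlation of the average with the Gini index was -0.974 for control and -0.643 for knockdown values, and over all transcripts it was -0.870 and -0.910. The control value is from a set cut at a Gini index of 0.65, and both measures come from the same libraries and positions. Between conditions, members correlated with a Pearson r of 0.690 in the Gini index, 0.623 in the maximum, 0.381 in the average and 0.191 in the standard deviation. Over all transcripts these values were 0.947, 0.929, 0.858 and 0.851. The members' values come from measures that chose them, so the order among them is a description of the selected set, across transcripts that are not independent replicates. Of the members, 10 shared all deposited values with another member.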
